A study of Mus musculus with 2 samples.

Results

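Semaphorins are guidance ligands, plexins are their receptors, and neuropilins are co-receptors that hold a secreted ligand and a plexin together. The 31 mouse genes of these families were chosen by name, as the rows whose Ensembl identifier maps to a listed symbol, and grouped by class into 20 semaphorins, 9 plexins and 2 neuropilins. They are 31 of the 43346 genes in each gene table. Total RNA above 200 nt was measured in 2 libraries of midbrain from B6NCrl embryos at 13.5 days, with 10 ng of RNA and added spike-in RNA per library. Both libraries belong to 1 group of healthy tissue pooled from male and female embryos, which the labels number as biological replicates 1 and 2 and give separate biosample entries. There is no treatment, mutant, other age or other tissue. The questions are therefore at what level each family member stood, which transcripts carried it, and how far the replicates differed. The tissue is bulk, so fewer cells of a type and less RNA per cell cannot be told apart, and a ligand and its receptor may sit in different cells.

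Each plexin carries a GTPase-activating domain inside the cell, and ligand binding changes small GTPases, actin and microtubules in the growth cone. Class 3 semaphorins are secreted, and most of them need a neuropilin to reach an A plexin. Classes 4, 5 and 6 span the membrane and bind plexins directly, while Sema7a is held by a lipid anchor. In the mouse midbrain the family is known for steering dopaminergic axons and elsewhere in the brain for sorting fibre tracts and placing migrating neurons.

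Replicate 1 held 32151659 and replicate 2 held 41915240 expected reads, an estimated count that need not be whole. Spike-ins took 2.22% and 4.06% of them. The family took 50055 reads in replicate 1 and 69692 in replicate 2, or 0.159% and 0.173% of the reads on genes. All 8 neuronal and all 8 progenitor markers reached 1 TPM (a read level per transcript length) in both libraries, as did 5 of 5 thalamic and 5 of 7 dopaminergic markers. Of 7 hindbrain markers 1 did, and Hoxb1 and Hoxa3 were listed at 0. Endothelial markers summed to 158 TPM in replicate 1 and 171 TPM in replicate 2.

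Nearly the whole family was present, at middling levels. With detection set at 1 TPM or more in each library, 28 of 31 members were detected, against 60.2% of protein-coding genes and 34.3% of all genes. The exceptions were Sema3d (0.83 TPM in either replicate), Sema3g (0.62 TPM in replicate 1 and 0.66 TPM in replicate 2) and Plxnb3 (0.07 and 0.05 TPM). Over all 31 members the median level was 8.94 TPM, beside 4.46 TPM over all protein-coding genes, detected or not. Among detected genes the order was the other way, with a median of 15.4 TPM for members and 19.7 TPM for protein-coding genes. A level of at least 10 TPM in both libraries was reached by 15 members and by 40.0% of protein-coding genes. The highest, Plxnb2, stood above 84.9% of detected protein-coding genes.

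**Figure D1:**
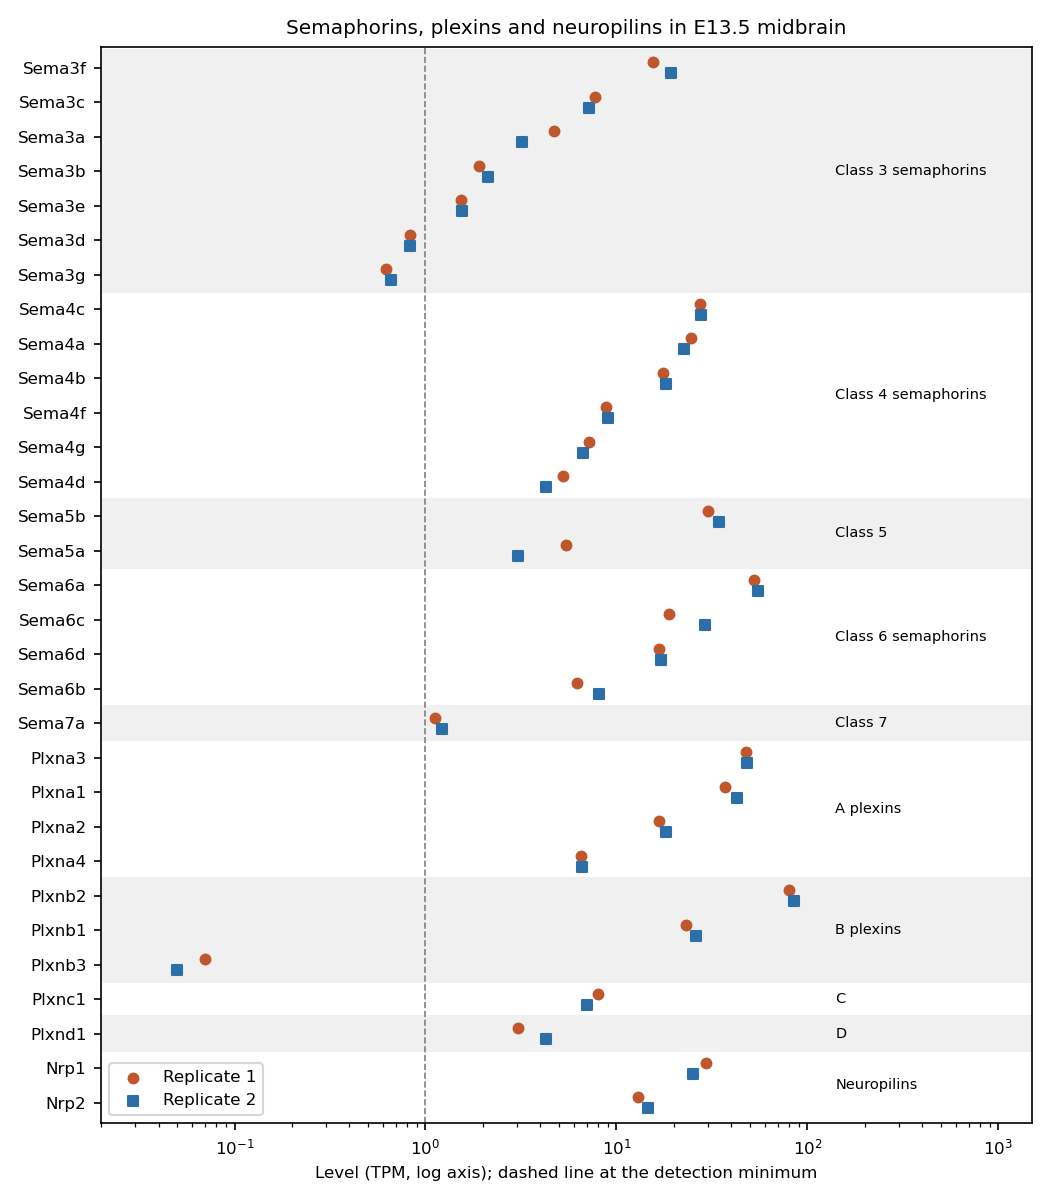
Level of each of the 31 members in TPM on a log axis, by class and, within a class, from high to low, with replicate 1 as circles and replicate 2 as squares, 1 library each. The members run from 0.05 TPM (Plxnb3, replicate 2) to 85.0 TPM (Plxnb2, replicate 2), and in most rows the libraries lie close together beside the distance between members.

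Summed per class, ligands and receptors were of like size. Semaphorins came to 255 TPM in replicate 1 and 272 TPM in replicate 2 (263 ± 12.1, SD, n = 2), plexins to 222 and 239 TPM (230 ± 11.6), and neuropilins to 42.4 and 39.7 TPM (41.0 ± 1.86). The plexin sum was 0.873 of the semaphorin sum in replicate 1 and 0.878 of it in replicate 2. Among the ligands, class 6 (94.3 and 110 TPM in replicates 1 and 2) and class 4 (90.7 and 88.4 TPM) led. Class 5 (35.7 and 37.4 TPM) and the secreted class 3 (32.8 and 34.9 TPM) followed, and class 7 was lowest (1.12 and 1.22 TPM). The A plexins (108 and 116 TPM) and the B plexins (103 and 111 TPM) were close, far above the C plexin (7.96 and 7.03 TPM) and the D plexin (3.06 and 4.26 TPM). Membrane-bound ligands thus held most of the semaphorin RNA.

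Class 3 was led by Sema3f, a ligand of Nrp2 that repels dopaminergic axons in the mouse midbrain. It stood at 15.5 TPM in replicate 1 and 19.4 TPM in replicate 2, or 2.00 and 2.69 times the level of Sema3c, which followed at 7.74 and 7.19 TPM. Sema3a, a repellent that acts through Nrp1, had 4.70 TPM in replicate 1 and 3.21 TPM in replicate 2, and both of its libraries lay below both of Sema3c. Sema3b, a repellent made by the floor plate, had 1.90 and 2.12 TPM. Sema3e, which binds Plxnd1 without a neuropilin and patterns vessels, had 1.54 and 1.56 TPM. Every library of Sema3f lay above every library of the other 6 members of the class.

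Members on the same chromosome differed in level. Sema3b (chr9:107597674-107609229) ends 72.3 kb before Sema3f (chr9:107681500-107710475) on build GRCm38, and both are on the minus strand. Sema3d, Sema3a, Sema3e and Sema3c lie within 5.35 Mb on chromosome 5, from 12383385 to 17730268, all on the plus strand, and run from 0.83 TPM (Sema3d) to 7.47 ± 0.39 TPM (Sema3c, SD, n = 2). On the X chromosome Plxnb3 (73757090 to 73772514) lies 557 kb before Plxna3 (74329066 to 74344689). Plxna3 stood at 47.7 TPM in replicate 1 and 48.4 TPM in replicate 2, while Plxnb3 rested on 5 reads in replicate 1 and 6 reads in replicate 2. The level of Plxnb3, 0.07 TPM in replicate 1 and 0.05 TPM in replicate 2, is thus known only as near 0. With so few reads its library ratio is also loose, with an exact (Clopper-Pearson) 95% interval of 0.26 to 4.23.

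Class 4 held 3 members of like level and 3 lower ones. Sema4c, the ligand of Plxnb2, stood at 27.4 TPM in replicate 1 and 27.7 TPM in replicate 2. Sema4a, which binds B plexins and Plxnd1, had 24.5 and 22.6 TPM, and Sema4b had 17.5 and 18.1 TPM. These are apart from each other by the rule used here, that both libraries of one gene lie above both of the other. Sema4f (8.84 TPM in replicate 1, 9.04 TPM in replicate 2), Sema4g (7.16 and 6.69 TPM), which shares work with Sema4c in the mouse cerebellum, and Sema4d (5.22 and 4.28 TPM), the ligand of Plxnb1, came below. Sema4c exceeded Sema4d by 5.25 times in replicate 1 and by 6.47 times in replicate 2.

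Class 5 members carry thrombospondin repeats and, in the mouse retina, confine neurites through Plxna1 and Plxna3. Sema5b had 30.3 TPM in replicate 1 and 34.4 TPM in replicate 2, against 5.42 and 3.04 TPM for Sema5a. Sema5b was 5.58 times Sema5a in replicate 1 and 11.3 times in replicate 2, a spread set mostly by Sema5a. Class 6 was led by Sema6a, a ligand of Plxna2 and Plxna4, at 52.3 TPM in replicate 1 and 55.3 TPM in replicate 2. Sema6c followed at 19.0 and 29.2 TPM, Sema6d, a ligand of Plxna1, at 16.8 and 17.2 TPM, and Sema6b, a ligand of Plxna4, at 6.23 and 8.10 TPM. Sema6a was above the other 3 members in both libraries. Sema7a, which binds Plxnc1 and beta-1 integrins, stood just above the detection minimum, at 1.12 TPM in replicate 1 and 1.22 TPM in replicate 2 on 72 and 104 reads.

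Plxnb2, a receptor needed for closure of the mouse neural tube, was the highest member (chr15:89155549-89180788, minus strand). It had 80.0 TPM in replicate 1 and 85.0 TPM in replicate 2 on 5798 and 8267 reads. Plxnb1, the receptor of Sema4d, had 23.2 and 26.1 TPM, so that Plxnb2 was 3.45 times Plxnb1 in replicate 1 and 3.25 times in replicate 2, or 2.02 and 1.89 times on protein-coding transcripts alone. Among the A plexins, the partners of neuropilins, Plxna3 (47.7 and 48.4 TPM) and Plxna1 (37.1 TPM in replicate 1, 43.0 TPM in replicate 2) stood above Plxna2 (16.6 and 18.2 TPM) and Plxna4 (6.54 and 6.57 TPM). Plxnc1 had 7.96 TPM in replicate 1 and 7.03 TPM in replicate 2, and Plxnd1, a receptor of vessel-forming cells, 3.06 and 4.26 TPM. The 8 detected plexins thus spanned a 22.8-fold range between Plxnb2 and Plxnd1 (26.1-fold in replicate 1, 20.0-fold in replicate 2), or 11.9-fold on protein-coding transcripts alone (13.6-fold and 10.5-fold).

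Nrp1, the co-receptor of Sema3a and of vascular endothelial growth factor, had 29.4 TPM in replicate 1 and 25.2 TPM in replicate 2 (chr8:128358604-128503363). Nrp2, the co-receptor of Sema3f, had 13.0 and 14.6 TPM (chr1:62703285-62818695). Nrp1 exceeded Nrp2 by 2.26 times in replicate 1 and by 1.73 times in replicate 2. The deposited tables give Nrp1 1 transcript, so its soluble and membrane-bound forms could not be told apart.

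Set beside each other, some of the known partners stood at like levels and others far apart. Sema3f and Nrp2 were close, at 17.4 ± 2.73 and 13.8 ± 1.11 TPM (SD, n = 2), and their receptor Plxna3 stood at 48.0 ± 0.50 TPM. Sema6b, at 7.17 ± 1.32 TPM, was close to Plxna4. Sema4a, at 23.5 ± 1.36 TPM, was close to Plxnb1 but not to Plxnb2 or Plxnd1. Sema6d, at 17.0 ± 0.30 TPM, was below Plxna1 at 40.05 ± 4.17 TPM. Sema3a, at 3.96 ± 1.05 TPM, was far below Nrp1 at 27.3 ± 2.97 TPM. Sema4c stood at 27.6 ± 0.19 TPM beside Plxnb2 at 82.5 ± 3.56 TPM, and Sema4d at 4.75 ± 0.66 TPM beside Plxnb1 at 24.7 ± 2.08 TPM. The order was the other way for Sema6a, at 53.8 ± 2.11 TPM beside Plxna2 at 17.4 ± 1.12 TPM and Plxna4 at 6.56 ± 0.02 TPM. Sema7a (1.17 ± 0.07 TPM) and Plxnc1 (7.50 ± 0.66 TPM), and Sema3e (1.55 ± 0.01 TPM) and Plxnd1 (3.66 ± 0.85 TPM), were low on both sides. On protein-coding transcripts alone the gaps that involve Plxnb2, Plxna3 and Sema6a were smaller. Mean levels were then 26.4 TPM for Sema4c beside 43.1 TPM for Plxnb2, and 28.2 TPM for Sema6a beside 15.4 TPM for Plxna2. Sema3f, Nrp2 and Plxna3 then stood at 11.5, 12.3 and 25.2 TPM.

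In the order of all 31 levels, 17 of 30 neighbouring pairs were apart. Plxnb2, Sema6a, Plxna3, Plxna1 and Sema5b held the first 5 places and each was apart from the next. From Sema4c through Nrp1, Plxnb1 and Sema6c to Sema4a no neighbours were apart, and the same held from Sema4b through Plxna2 and Sema3f to Sema6d. At the low end Sema3b, Sema3e, Sema7a, Sema3d, Sema3g and Plxnb3 formed a clear descending order.

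Part of these levels lay on transcripts that are not annotated as protein-coding, and this changed the order. A short transcript needs few reads to gain a high TPM. For Plxnb2, a processed transcript of 841 nt took 41.4% of the gene's level in replicate 1 and 42.8% in replicate 2, with 8.50% and 8.73% of its reads. Its main protein-coding transcript, of 6377 nt, stood at 40.6 TPM in replicate 1 and 42.8 TPM in replicate 2. Both of these Plxnb2 transcripts differ in length from their entries in the annotation that gave the transcript types. For Plxna3, 52.3% and 52.5% of the level lay on protein-coding transcripts, which held 90.9% of its reads in either library. Its largest other share was the 984-nt retained-intron transcript Plxna3-203, with 21.1% in replicate 1 and 18.4% in replicate 2. For Sema6a the protein-coding share was 53.5% in replicate 1 and 51.5% in replicate 2, and the retained-intron transcripts Sema6a-209 (18.8% and 24.4%) and Sema6a-208 (21.4% and 18.4%) took most of the rest. For Plxna1 coding transcripts held 37.1 of 37.1 TPM in replicate 1 and 43.0 of 43.0 TPM in replicate 2.

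The protein-coding share lay under 60% in both libraries for 5 members (Plxnb2, Plxna3, Sema6a, Sema6c and the nearly absent Plxnb3) and over 95% for 12. Its median was 89.8% over the 31 members, beside 97.8% over detected protein-coding genes. The same counts over all protein-coding genes were not made. Counted on protein-coding transcripts alone, a comparison added after seeing the data, Plxnb2 stayed first (41.7 TPM in replicate 1, 44.6 TPM in replicate 2). Plxna1 moved to second place (37.1 and 43.0 TPM), ahead of Sema6a (28.0 and 28.5 TPM), Nrp1 (29.4 and 25.2 TPM), Sema4c (25.7 and 27.1 TPM) and Plxna3 (24.9 and 25.4 TPM). Plxna3, above Plxna1 by 1.28 times in replicate 1 and 1.12 times in replicate 2 on all transcripts, then stood at 0.672 and 0.591 of it. The semaphorin sum became 188 TPM in replicate 1 and 191 TPM in replicate 2, and the plexin sum 157 and 170 TPM. Class 4 (78.0 TPM in replicate 1, 76.1 TPM in replicate 2) then stood above class 6 (58.6 and 64.1 TPM), and the A plexins (83.8 and 90.5 TPM) above the B plexins (62.4 and 68.2 TPM). Classes 5 (25.6 and 24.2 TPM) and 3 (24.7 and 25.6 TPM) changed order between the libraries. Within classes, Sema6a was then 4.49 and 3.52 times Sema6b in replicates 1 and 2, against 8.40 and 6.83 times on all transcripts. Sema5b was 3.72 times Sema5a in replicate 1 and 6.97 times in replicate 2.

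**Figure D2:**
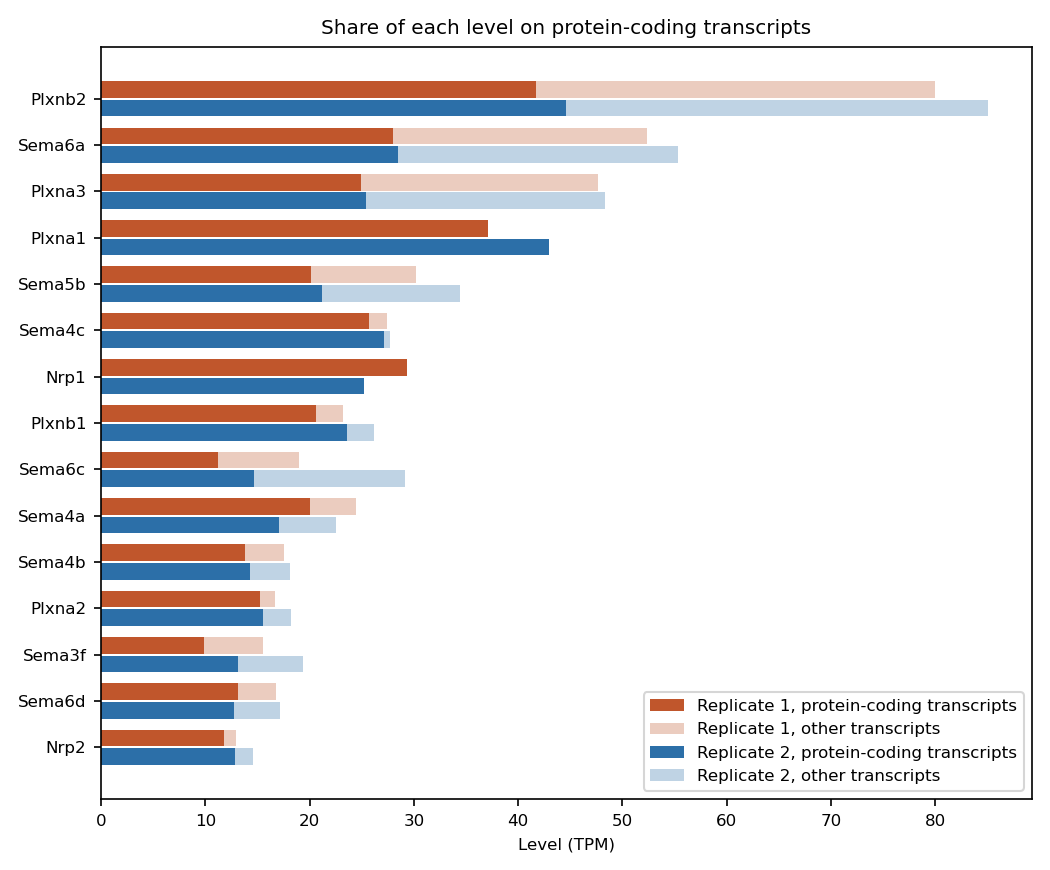
Level of the 15 members with the highest mean, in TPM on a linear axis from 0, with replicate 1 above replicate 2. The solid part of each bar is the sum over protein-coding transcripts and the pale part the other transcripts, 1 library per bar. The pale part is about as long as the solid one for Plxnb2, Sema6a and Plxna3 and missing for Plxna1 and Nrp1.

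Most members used 1 leading transcript, the one with the highest deposited percent of the gene's level, in both libraries. Among members with at least 2 transcripts and at least 5 TPM in both libraries, 17 of 19 kept the same one, against 92.8% of all such genes. The leading transcript was protein-coding in both libraries for 18 of 19, against 89.0% of such protein-coding genes. For Sema6a the protein-coding Sema6a-201 led in replicate 1 (24.8%, against 23.3% in replicate 2) and the retained-intron Sema6a-209 led in replicate 2. For Sema4a both leading transcripts were protein-coding and differed in their annotated start. Sema4a-214, which starts at position 88461182 of chromosome 3, held 30.0% in replicate 1 and 14.6% in replicate 2, and Sema4a-213, which starts at 88459101, held 22.4% and 37.9%. Such shares come from divided reads, and the files give no error for them. Sema4c was split in the same way in both libraries, with 38.1% in replicate 1 and 39.6% in replicate 2 on Sema4c-201 and 26.5% and 31.2% on Sema4c-203.

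Nrp2 is made with 2 alternative ends, the a tail and the b tail, each with its own membrane span and cytoplasmic part, and the a tail ends in the motif that the adaptor Gipc1 binds. The first 60 bases of each tail exon are given in capitals, after the last 12 bases that the forms share, since these letters are where the receptors part (GRCm38, plus strand, GENCODE M21 transcripts).
Nrp2 a tail, chr1:62815333-62815634: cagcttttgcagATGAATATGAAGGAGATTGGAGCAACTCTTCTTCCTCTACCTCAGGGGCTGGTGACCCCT
Nrp2 b tail, chr1:62795709-62795986: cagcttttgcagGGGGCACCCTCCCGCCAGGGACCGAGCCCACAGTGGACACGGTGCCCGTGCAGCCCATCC
Coding transcripts with the a tail held 7.43 TPM in replicate 1 and 8.59 TPM in replicate 2, and those with the b tail 4.34 and 4.30 TPM. The a tail thus made up 63.1% of coding Nrp2 in replicate 1 and 66.6% in replicate 2 (64.9% ± 2.48, SD, n = 2).

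Ahead of the tails, Nrp2 can carry 2 small insertions, shown in capitals between the 12 bases on either side.
Nrp2 insertion of 15 bases, chr1:62786302-62786316: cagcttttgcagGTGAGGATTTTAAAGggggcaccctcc
Nrp2 insertion of 51 bases, chr1:62812534-62812584: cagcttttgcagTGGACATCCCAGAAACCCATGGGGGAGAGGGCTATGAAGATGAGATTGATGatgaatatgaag
Both lengths are multiples of a codon, adding 5 and 17 residues without a shift of frame. The 15-base insertion was in 29.9% of coding Nrp2 level in replicate 1 and 28.6% in replicate 2, and 92.0% and 75.6% of that lay on Nrp2-201, where it joins the b tail, as shown. The 51-base insertion, found in a-tail transcripts, was in 20.3% and 17.9% of these. The leading transcript, Nrp2-204, which held 45.6% of the gene in replicate 1 and 42.2% in replicate 2, has the a tail and neither insertion.

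Sema6d had both an alternative start and a pair of neighbouring cassette exons in its coding part. The coding transcript Sema6d-208 starts at 124089969 on chromosome 2, 520327 bases before the first of the 7 other coding transcripts. It held 53.2% of coding Sema6d in replicate 1 and 55.4% in replicate 2, or 6.99 and 7.07 TPM. The cassettes, given in capitals between 12 neighbouring bases on each side, are absent from Sema6d-208 and present in Sema6d-206, which held 21.8% of the gene in replicate 1 and 15.3% in replicate 2.
Sema6d cassette of 57 bases, chr2:124660705-124660761: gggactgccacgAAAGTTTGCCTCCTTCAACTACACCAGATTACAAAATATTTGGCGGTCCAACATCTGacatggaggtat
Sema6d cassette of 168 bases, chr2:124662204-124662371: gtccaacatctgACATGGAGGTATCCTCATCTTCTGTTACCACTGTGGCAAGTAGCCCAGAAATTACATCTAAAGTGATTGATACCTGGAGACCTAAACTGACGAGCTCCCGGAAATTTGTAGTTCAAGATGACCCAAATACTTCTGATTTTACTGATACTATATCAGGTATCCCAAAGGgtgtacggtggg
They add 19 and 56 residues. The 57-base cassette was in 35.9% of coding Sema6d in replicate 1 and 32.3% in replicate 2, and the 168-base cassette in 38.2% and 32.9%. Skipping was the more frequent choice for either cassette in both libraries.

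Sema3f has a cassette of 93 bases, or 31 residues, at chr9:107691356-107691448 on the minus strand, shown in capitals in the sense of the transcript.
Sema3f cassette of 93 bases: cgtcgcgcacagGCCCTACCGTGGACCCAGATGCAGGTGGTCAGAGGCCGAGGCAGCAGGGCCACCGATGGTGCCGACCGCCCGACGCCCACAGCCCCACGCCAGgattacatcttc
It was in 2.18 of the 9.90 TPM on coding Sema3f transcripts in replicate 1 and in 2.76 of 13.1 TPM in replicate 2, or 21.5% ± 0.72 of them (SD, n = 2). The leading Sema3f-201, without it, held 49.8% of the gene in replicate 1 and 53.6% in replicate 2.

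**Figure D3:**
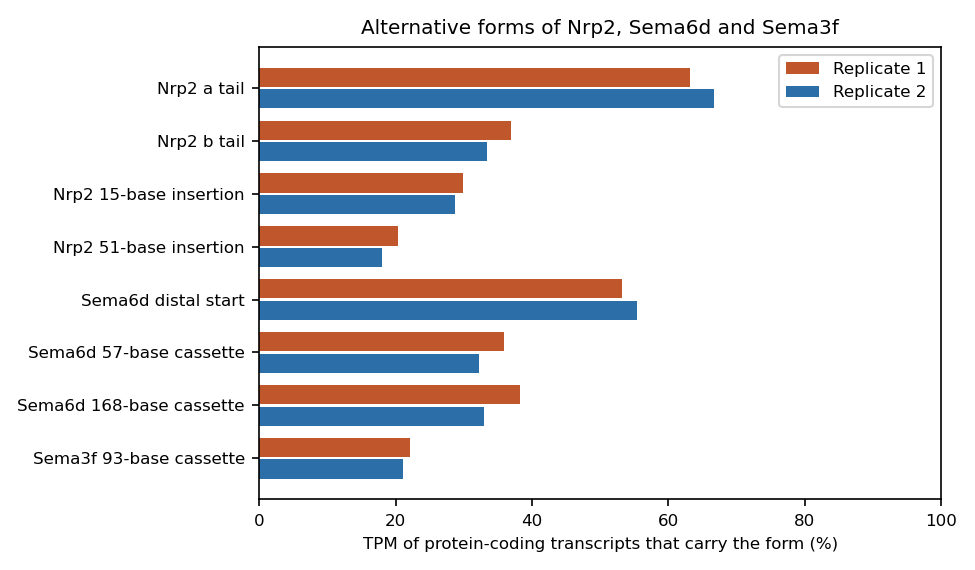
Share of coding transcript level, in percent on an axis from 0 to 100, that carries each named form of Nrp2, Sema6d and Sema3f, with replicate 1 above replicate 2 and 1 library per bar. For the 51-base Nrp2 insertion the whole is the a-tail transcripts alone. The Nrp2 a tail (63.1% and 66.6%) and the distal Sema6d start (53.2% and 55.4%) lie above 50% in both libraries and every cassette or insertion lies below.

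The replicates lay within 2-fold of each other for every member that could be compared. Expected counts were scaled by TMM, and since a single library stood on either side, no test was made and a rule of size was used. Of the 30 members whose counts averaged 50 or more, 0 differed by at least 2-fold, against 0.724% of all 14366 such genes. At 1.5-fold 2 members did, against 3.31% of genes. The median log2 ratio of replicate 1 over replicate 2 was -0.09 for the members and -0.0037 for all genes, and the members' median absolute log2 ratio was 0.14, against 0.10 for all genes. Of the 30 members, 8 were higher in replicate 1 and 22 in replicate 2, and the same split over all counted genes was not made.

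Sema5a was the member most above 1, with 1164 reads and 5.42 TPM in replicate 1 against 871 reads and 3.04 TPM in replicate 2. The scaled ratio was 1.73 (95% interval 1.58 to 1.89), where the interval covers counting error only. Sema6c was the member most below 1, with 1058 reads and 19.0 TPM in replicate 1 against 2145 reads and 29.2 TPM in replicate 2, a ratio of 0.637 (0.591 to 0.686). On reads of its coding transcripts alone the ratio of Sema6c was 0.681, inside 1.5-fold, so that 1 member, Sema5a, was then left past that size. Sema3a followed above 1, at 1.38 (1.21 to 1.57), and Plxnd1 (0.696, 0.616 to 0.785), Sema3f (0.728, 0.664 to 0.797) and Sema6b (0.746, 0.663 to 0.838) below it. Nrp1 (1.13, 1.08 to 1.18) and Nrp2 (0.855, 0.799 to 0.914) lay on opposite sides of 1. The interval left out 1 for 18 of the 30 members, against 39.3% of all genes with such counts.

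Regional markers moved between the same libraries. The 5 thalamic markers, all detected, summed to 950 TPM in replicate 1 and 687 TPM in replicate 2. The 7 dopaminergic markers summed to 75.7 TPM in replicate 1 and 147 TPM in replicate 2, the 6 floor plate markers to 52.2 and 77.0 TPM, and the 5 cortical markers, 2 of them detected, to 22.4 and 38.0 TPM. Meningeal markers came to 277 TPM in replicate 1 and 340 TPM in replicate 2. All 7 were higher in replicate 2 on scaled counts, as were all 8 endothelial markers. Counting intervals of the ratio included 1 for Foxc1 (0.715 to 1.25), Foxd1 (0.641 to 1.29) and some endothelial markers, such as Cdh5 (0.892 to 1.08). The same split over all counted genes was not made. The part of these differences in the ratios of Sema5a, Sema6c or any other member was not tested.

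**Figure D4:**
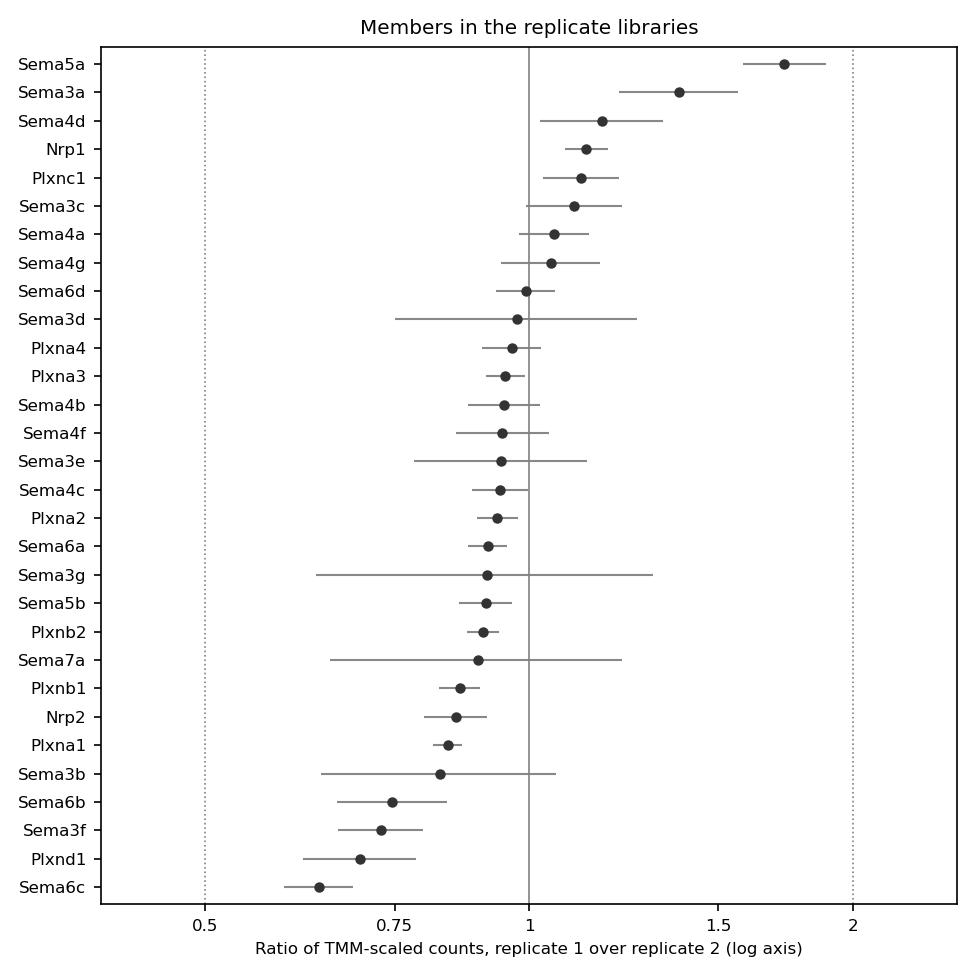
Ratio of TMM-scaled counts, replicate 1 over replicate 2, on a log axis, for the 30 members whose counts averaged 50 or more, in order of the ratio. Points are 1 library over 1 library, bars are exact 95% intervals for counting error only, and dotted lines mark 2-fold. All points lie between 0.637 (Sema6c) and 1.73 (Sema5a), inside the dotted lines.

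Genes that act with the family were nearly all present, 36 of them inside the cell and the rest co-receptors or growth factors and receptors that share neuropilins. Of these 54 partner genes in 7 lists 51 were detected, against 60.2% of protein-coding genes. On scaled counts 0 of the 54 differed by at least 2-fold, against 0.724% of all counted genes. Collapsin response mediator proteins, which bind tubulin downstream of Sema3a, were the highest, with Dpysl2 at 1146 TPM in replicate 1 and 958 TPM in replicate 2, Dpysl3 at 855 and 777 TPM, Crmp1 at 570 and 543 TPM, Dpysl4 at 179 and 172 TPM and Dpysl5 at 159 and 156 TPM. Of 5 MICAL and MICAL-like genes 4 were detected, led by the actin-oxidising enzyme Mical1 (26.1 and 21.8 TPM), and Mical2 was not (0.98 and 0.89 TPM). All 11 small GTPases were detected, led by Rnd3 (284 and 254 TPM), Rhoa (250 and 224 TPM), Rac1 (207 and 221 TPM) and Rap1b (150 and 140 TPM), with Rhod lowest by mean (8.46 TPM in replicate 1, 3.05 TPM in replicate 2). Of the 6 GTPase regulators and adaptors Gipc1, which binds the neuropilin tail, was highest at 132 TPM in replicate 1 and 133 TPM in replicate 2, then Sh3bp1 (47.5 and 52.2 TPM), Farp1 (17.0 and 17.4 TPM) and Arhgef11 (16.7 and 17.5 TPM). Farp2, which couples A plexins to Rac1, was lowest of these at 2.98 and 3.63 TPM.

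All 9 kinases of the pathway were detected, with Gsk3b (139 TPM in replicate 1, 134 TPM in replicate 2), Pak1 (115 and 103 TPM), Limk2 (112 and 105 TPM) and Cdk5 (57.0 and 50.3 TPM) highest and Fes lowest (2.21 and 3.02 TPM). Of 12 co-receptors 11 were detected. Itgb1, a receptor of Sema7a, had 64.9 TPM in replicate 1 and 67.5 TPM in replicate 2. The adhesion proteins L1cam (66.1 and 57.8 TPM), which joins Nrp1 in the Sema3a receptor, Cntn2 (51.8 and 70.6 TPM) and Nrcam (48.2 and 50.9 TPM) were close to it. Met, a partner of Plxnb1, was not detected (0.74 and 0.69 TPM). Of the growth factors and receptors that share neuropilins, 5 of 6 were detected, among them Vegfb (19.0 and 22.2 TPM), Flt1 (6.41 and 7.53 TPM), Pgf (4.17 and 4.34 TPM) and Vegfa (2.24 and 2.72 TPM). Flt4 fell short in replicate 1 (0.96 TPM, against 1.40 TPM in replicate 2).

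Other guidance families were as widely present. Of 16 netrin and Slit ligands and receptors listed, 15 had a row, Ntn3 being not analysed here, and all 15 were detected, with a median of 14.2 TPM, led by Robo2 (65.9 TPM in replicate 1, 58.5 TPM in replicate 2), Robo1 (54.7 and 51.0 TPM), Dcc (42.7 and 50.7 TPM) and Slit2 (27.2 and 34.7 TPM), with Ntn4 lowest. Of 14 EphA receptors and ephrin-A ligands 13 were detected, with a median of 13.7 TPM, and of 8 EphB receptors and ephrin-B ligands 8, with a median of 20.6 TPM. Their highest members were Efna5 (73.1 TPM in replicate 1, 63.6 TPM in replicate 2) and Efnb3 (77.8 and 102 TPM), the last of which lay above Plxnb2 in replicate 2. The 31 semaphorin, plexin and neuropilin genes summed to 519 TPM in replicate 1 and 550 TPM in replicate 2, against 284 and 306 TPM for netrins and Slits, 292 and 303 TPM for EphA and ephrin-A, and 219 and 256 TPM for EphB and ephrin-B. These lists differ in length, and no test between them was made.

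Promoter windows from RefSeq (GRCm38.p6), reaching from upstream of a start to shortly after it, were found for 26 of the 31 members, in 37 windows. The dinucleotide CG was counted, a sequence that reads the same on both strands and overlaps no other motif counted here. Member windows had a median of 15 and all 32851 windows a median of 7. At least 20 were found in 16 member windows, belonging to 15 members, and in 26.5% of all windows, and at least 1 in 94.6% of all windows. The windows of the highest and the lowest B plexin and of the distal Sema6d start are shown with each CG in capitals, in the sense of transcription.
Plxnb2, chr15:89180739-89181038, minus strand, 27 CG: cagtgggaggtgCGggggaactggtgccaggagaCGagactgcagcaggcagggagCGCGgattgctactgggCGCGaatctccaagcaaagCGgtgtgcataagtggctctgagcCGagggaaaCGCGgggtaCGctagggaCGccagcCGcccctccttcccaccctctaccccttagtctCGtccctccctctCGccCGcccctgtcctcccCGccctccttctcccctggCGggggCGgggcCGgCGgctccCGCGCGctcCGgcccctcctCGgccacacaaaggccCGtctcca
Plxnb3, chrX:73756853-73757152, plus strand, 4 CG: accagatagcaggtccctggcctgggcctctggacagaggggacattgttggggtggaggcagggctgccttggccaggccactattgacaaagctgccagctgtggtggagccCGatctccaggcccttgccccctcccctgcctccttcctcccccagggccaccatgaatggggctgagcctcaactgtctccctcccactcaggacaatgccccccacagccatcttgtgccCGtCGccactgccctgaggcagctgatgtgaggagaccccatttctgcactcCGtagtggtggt
Sema6d, chr2:124089719-124090018, plus strand, 14 CG: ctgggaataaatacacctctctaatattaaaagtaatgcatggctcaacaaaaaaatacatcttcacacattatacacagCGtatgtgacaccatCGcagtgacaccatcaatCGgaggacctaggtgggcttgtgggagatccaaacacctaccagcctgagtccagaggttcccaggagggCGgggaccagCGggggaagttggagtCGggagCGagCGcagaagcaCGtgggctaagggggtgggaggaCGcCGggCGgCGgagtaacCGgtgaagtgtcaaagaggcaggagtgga
Plxnb2, with 27 CG and a second window of 15, stood at 82.5 ± 3.56 TPM, and Plxnb3, with 4, at 0.06 ± 0.01 TPM (SD, n = 2). CG counts did not order the members, since Sema3c had the most, 42, at 7.47 TPM, far below Plxnb2. Each of the 3 windows of Sema4d had 3 or fewer. Its leading transcript, Sema4d-201, starts outside all of them, at 51793747 on chromosome 13, so these windows do not describe that start. A count of letters is a description of the window and says nothing of what binds it.

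Exons of 7 members share bases with another annotated gene. Sema4c shares 334 bases with D430040D24Rik, which lies on the opposite strand at 1.29 TPM in replicate 1 and 1.62 TPM in replicate 2, and Plxna1 shares 970 bases with the antisense gene Gm26811 (0.83 and 0.66 TPM). Plxnb1 shares 257 bases with Gm7628 (0.24 and 0.40 TPM). No source used here says if strand entered the counting, so in these stretches the partners' reads cannot be told apart, although each of these 3 partners stood far below its member.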

How the data were processed

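The authors deposited a gene and a transcript table per library, on assembly mm10 with GENCODE M4, per the deposited readme text. The deposited expected counts are estimated reads. Deposited TPM is per length and scaled over all entries, spike-ins included, so that genes held 946373 of it in replicate 1 and 906069 in replicate 2. Deposited FPKM is per length and aligned reads, and the deposited percent is a transcript's share of its gene, per the file headers. Aligner, versions and strand use: not given in the sources used here.

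Symbols, positions and transcript types came from GENCODE M21 (GRCm38). Of 185 member transcripts 184 were matched by identifier and 169 had the same length. Expected counts were rounded, 0.5 was added, and they were scaled by TMM in edgeR 4.0.16 (R 4.3.3), a step tested on simulated data. Intervals are exact (Clopper-Pearson, scipy 1.17.1). Reads carry no molecular identifiers and are not independent molecules, so intervals cover counting error only, and SDs cover only the spread between these 2 libraries.

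The members, gene lists and alternatives were chosen with earlier results of these data known. All 31 members are named, and of other lists up to 4 highest members and the lowest. Scaling by DESeq2 1.42.0 or by library totals, other minimums, FPKM, posterior mean TPM and each library alone were tried as alternatives. Levels on protein-coding transcripts were added after seeing the data.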

Additional observations from a re-analysis of the deposited data

How the results depend on the processing

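The detected members numbered 28 in the report and 26 at an FPKM of at least 1, 30 at a TPM minimum of 0.5, 25 at 2 and 21 at 5, and 28 in either library alone. The count of members past 2-fold was 0 when scaled by DESeq2 or by totals, in TPM + 0.1, at either lower count minimum and on reads of coding transcripts alone, and 2 with a 1.5-fold rule. The sum of semaphorin TPM was 263.1, or 284.4 rescaled to genes alone, 166 in FPKM and 189.5 on protein-coding transcripts. For plexins these were 230.4, 249.1, 145.4 and 163.3, and for neuropilins 41.05, 44.3 and 25.88, with 39.6 on protein-coding transcripts. Without 1 replicate the sums ran from 254.6 to 271.7, from 222.2 to 238.7 and from 39.73 to 42.36. In the order of levels 22 of 31 members kept their place to within 1 on protein-coding transcripts, 31 in FPKM, 28 in posterior mean TPM, and 23 without replicate 1 and 28 without replicate 2. Of 155 alternative ratios of single members 150 lay inside the counting interval, and the 5 outside it were Sema3f and Plxnb2 in TPM + 0.1 and Sema3b, Sema6a and Plxnb3 for coding transcripts, where Sema3b came to 0.09 on the log2 scale. No paired analysis was possible because there is 1 group. Depth limits the lowest members most, with 5 and 6 reads for Plxnb3.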

Other observations

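Sema4g, a class 4 ligand, had 27.9% to 29.1% of its level on Sema4g-202, a transcript annotated for nonsense-mediated decay, in both libraries (29.1% in replicate 1, 27.9% in replicate 2). Its coding transcript Sema4g-203 held 3.26% in replicate 1 and 21.02% in replicate 2, on 19.6 and 158 expected reads. Sema3f carried 12.1% of its level in replicate 1 and 14.1% in replicate 2 on Sema3f-208, of the same annotated type, and Sema6c 11.8% and 13.3% on Sema6c-212. Sema3c had 20.9% in replicate 1 and 26.8% in replicate 2 on the retained-intron transcript Sema3c-205. These shares are the authors' deposited percent values.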
